A study of Mus musculus with 16 samples.

Results

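Utp14b, its X-linked paralog Utp14a and Acsl3, the gene whose locus Utp14b shares, were followed through oligodendrocytes of juvenile mice with and without exposure to bisphenol A (BPA), a plasticizer. These 3 genes are 3 of the 32207 in the deposited table, and all 3 were among the 16339 with enough counts to be tested. Utp14b was chosen because its level was lower with BPA, so its BPA values are given as a description, without a test. Utp14a and Acsl3 were chosen for their relation to Utp14b and not for their levels. RNA was sequenced from brain cells of OF-1 mice, an outbred stock, collected at postnatal day 16 by magnetic sorting for the O4 antigen of the oligodendrocyte lineage. There were 4 libraries each of male controls, female controls, BPA-exposed males and BPA-exposed females. Exposed pups received BPA through their mothers from gestational day 7 and through lactation, at a labelled exposure of 40 µg per kg per day that the submitters give as an estimate. The design text puts 250 µg of BPA in each mL of the water, and the pair of values would hold together only at a water intake of 0.16 mL per kg per day, so the scale of the dose was not settled. Litters are not labelled, and since mothers were dosed, littermates share their exposure, so p-values reflect only how these libraries vary and may be too small.

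Utp14 proteins belong to the small subunit processome, the large nucleolar assembly that processes the precursor of the small ribosomal RNA. Utp14a, on the X chromosome, is the parent gene of the pair. Utp14b arose from it as a retrogene, a copy made through RNA, on an autosome, and is known for the mouse jsd mutation, in which spermatogonia are depleted. Acsl3 encodes a long-chain acyl-CoA synthetase of the endoplasmic reticulum and lipid droplets, which activates fatty acids for lipid synthesis. Oligodendrocytes make large amounts of lipid while they form myelin.

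The coding sequences show how far the paralogs have diverged, which bears on whether their reads can be told apart. In GENCODE M21 the coding sequence is 2343 bases in Utp14b and 2304 bases in Utp14a, stop codon included, and 77.8% of 2253 aligned positions were identical. The longest identical run was 30 bases. It starts at base 163 of the Utp14b coding sequence and base 91 of the Utp14a coding sequence. The windows around it are printed 5′ to 3′, with capitals at the 14 of 90 bases where they differ. The Utp14b window is coding bases 133 to 222 and the Utp14a window is coding bases 61 to 150.
Utp14b: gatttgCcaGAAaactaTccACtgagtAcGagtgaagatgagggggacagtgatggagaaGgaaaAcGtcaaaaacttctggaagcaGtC
Utp14a: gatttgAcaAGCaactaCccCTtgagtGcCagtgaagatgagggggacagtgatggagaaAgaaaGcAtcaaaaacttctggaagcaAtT
None of the 7616 distinct words of 50 bases in Utp14b transcripts occurred in Utp14a transcripts. The processed pseudogene Utp14b-ps1 held 1 count over all 16 libraries together.

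Utp14b and Acsl3 lie on the plus strand of chromosome 1 and overlap at their 5′ ends. The longer Utp14b transcript starts 213 bases after the longest Acsl3 transcript, inside its first exon, and the shorter one starts 615 bases after it, with a first exon of its own. The second exon of the longer Utp14b transcript, of 140 bases, has the same ends as an exon of Acsl3. Its last exon, of 7187 bases, lies inside Acsl3 intron 2. In all, 244 exon bases were shared, which is 3.18% of those of Utp14b and 5.6% of those of Acsl3. Of the 50-base words, 2.07% of those in Utp14b and 3.59% of those in Acsl3 were common to both genes. Counts are per gene, and the part that unspliced Acsl3 RNA across that intron takes in the Utp14b value was not tested. How the authors' counting treated reads on shared exons is not given in the sources used here.

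**Figure D1:**
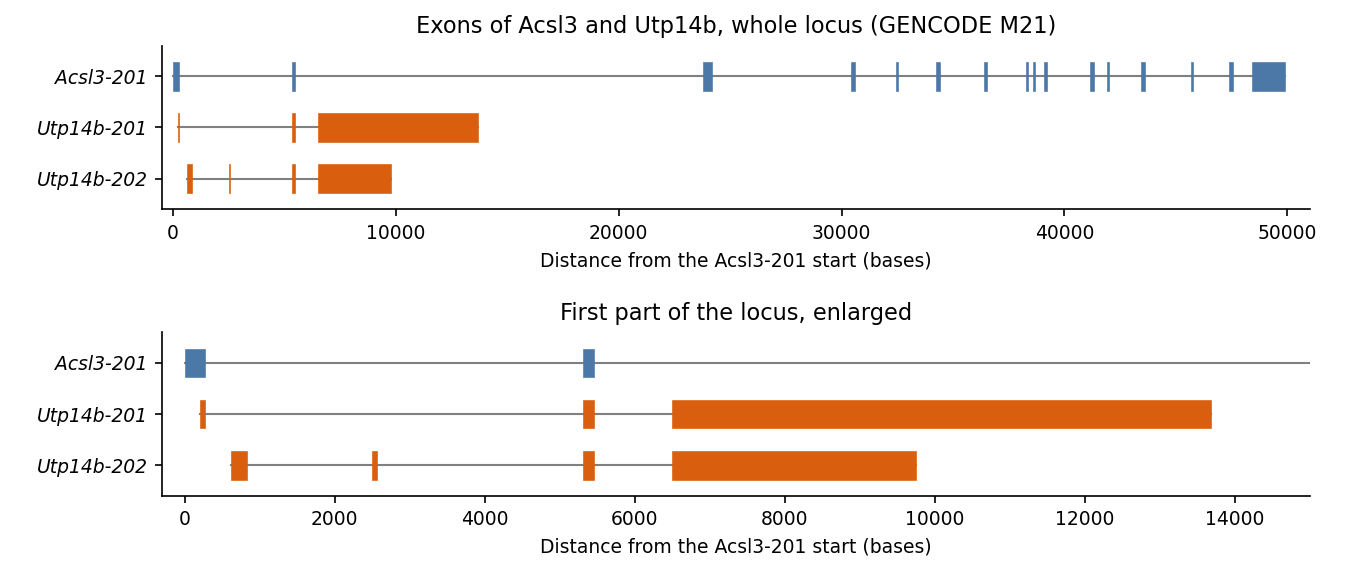
Exons (boxes) and introns (lines) of 1 Acsl3 transcript and both Utp14b transcripts, by distance in bases from the Acsl3 start; the lower panel enlarges the first part. The 140-base second exon of the longer Utp14b transcript lines up with an Acsl3 exon, and its 7187-base last exon lies in an Acsl3 intron.

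The promoter windows of the host gene and the retrogene are shown because both levels varied together within groups, as described further on. Each runs from 250 bases before to 50 bases after the RefSeq start, on the plus strand of GRCm38.p6. The Utp14b window belongs to the start of the shorter transcript, and the start of the longer one lies upstream of it, so the values for Utp14b leave that start out. Capitals mark CACGTG in Utp14b, and in Acsl3 GGGCGG on either strand (CCGCCC on the printed one) and CCAAT. In Acsl3 the CCAAT and a GGGCGG stand next to each other without overlap.
Utp14b, chr1:78658190-78658489: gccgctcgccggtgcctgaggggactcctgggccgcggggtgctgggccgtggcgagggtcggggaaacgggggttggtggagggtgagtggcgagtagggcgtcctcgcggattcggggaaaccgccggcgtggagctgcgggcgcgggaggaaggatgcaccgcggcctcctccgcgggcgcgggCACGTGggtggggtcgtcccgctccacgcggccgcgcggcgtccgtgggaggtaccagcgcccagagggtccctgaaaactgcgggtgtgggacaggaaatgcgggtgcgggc
Acsl3, chr1:78657575-78657874: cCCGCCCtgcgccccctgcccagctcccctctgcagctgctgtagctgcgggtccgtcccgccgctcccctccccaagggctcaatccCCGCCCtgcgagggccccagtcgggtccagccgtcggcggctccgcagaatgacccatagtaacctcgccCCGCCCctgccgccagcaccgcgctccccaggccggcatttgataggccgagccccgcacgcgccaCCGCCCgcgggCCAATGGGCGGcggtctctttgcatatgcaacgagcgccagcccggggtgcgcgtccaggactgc
The Utp14b window held 40 CpG and was 75% G or C, and the Acsl3 window held 33 CpG and was 74.0% G or C. The Utp14a window held 21 CpG and was 54.7% G or C. Over 32851 windows of this length the medians were 7 CpG and 52.7%. Motifs were searched on both strands. CACGTG, an E-box, occurred 1 time in Utp14b and in 7.15% of all windows. GGGCGG occurred 5 times in Acsl3, 1 time in Utp14a and in 35.7% of windows, and CCAAT occurred 1 time in each of Acsl3 and Utp14a and in 37.4% of windows. The core of an estrogen response element, GGTCA and TGACC with 3 bases of any kind between them, was in 0.07% of windows and in 0 of these 3.

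Libraries held from 23603816 to 42575326 counts. Libraries of the same group differed by more than counting noise in all 24 pairs, with a chi-square per gene from 15.8 to 131. CPM are a gene's counts relative to a scaled library total. Myelin genes marked the cells as labelled, and the major myelin protein gene Mbp reached 18100 ± 1490 CPM over the controls and 17200 ± 2170 CPM over the exposed libraries (SD, n = 8 each). The male BPA 2 library stood apart in astrocyte markers, whose summed level was 2160 CPM there, against 400 to 868 CPM in controls.

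Utp14b was lower with BPA in both sexes. Its level in the 4 male controls was 76.8, 68.5, 79.1 and 73.5 CPM, and in the 4 female controls 71.6, 83.5, 64.0 and 73.0 CPM. In the 4 BPA males it was 50.4, 53.8, 47.2 and 55.1 CPM, and in the 4 BPA females 44.2, 43.1, 60.4 and 56.7 CPM. Every BPA library thus lay below every control library, and the BPA females formed a low pair and a high pair. The mean was 73.7 ± 6.11 CPM over controls and 51.4 ± 6.20 CPM over exposed libraries (SD, n = 8 each), a log2 fold change of -0.53 ± 0.08 (SE). That change was -0.53 ± 0.11 in males and -0.53 ± 0.11 in females. Without male BPA 2 and female BPA 1, the libraries that an earlier look at these data had set apart, it was -0.49. Across the tested genes, 9 had all 8 BPA libraries below all 8 controls (0.0551%), and 5 had them all above (0.0306%). limma-voom called 3 of 16339 genes at an adjusted p under 0.05 for BPA (0.0184%), 2 of them lower (0.0122%), and from 0 to 5 genes with 1 library left out. As Utp14b was picked on this contrast, nothing is read from these shares. In sorted bulk RNA, a lower level per cell and fewer cells that express the gene cannot be told apart.

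**Figure D2:**
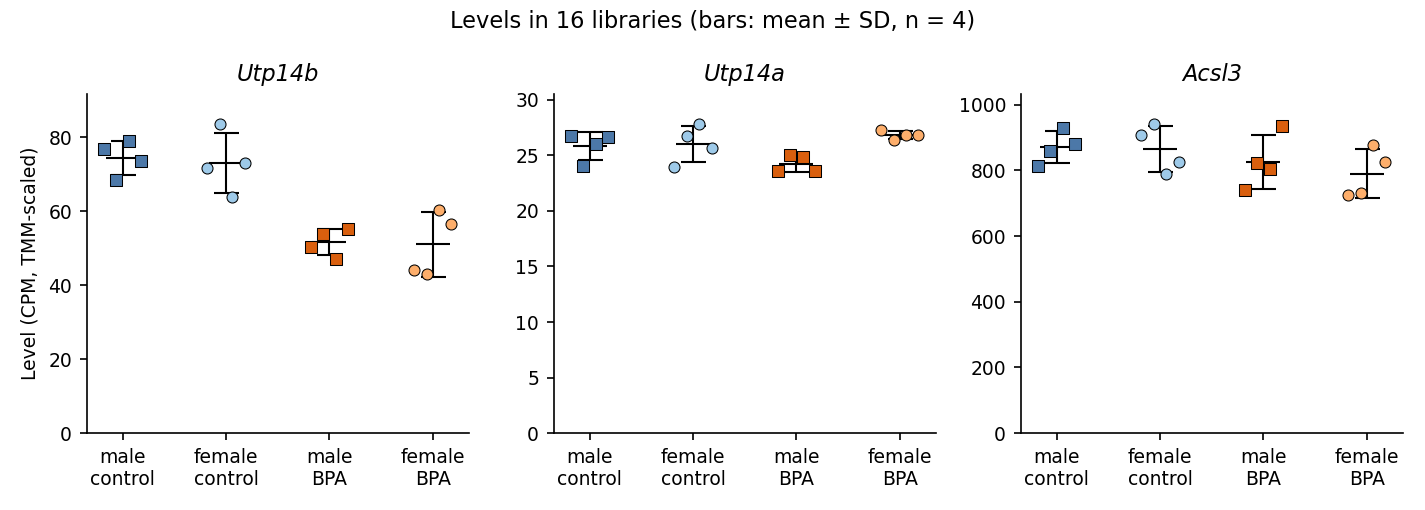
Level in CPM (vertical axis, from 0) of Utp14b, Utp14a and Acsl3 in each of 16 libraries, by group, with mean ± SD (n = 4). For Utp14b the BPA libraries reach 60.4 CPM at most and the controls 64.0 CPM at least; for Utp14a and Acsl3 the exposure groups overlap.

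No sex difference in Utp14b passed the threshold. Its log2 difference of females against males was -0.03 ± 0.08, with a 95% confidence interval from -0.19 to 0.13 and an adjusted p of 0.999 in limma-voom. The difference between the BPA effects of the sexes, females minus males, was 0.00 ± 0.15 with an interval from -0.32 to 0.32 (adjusted p = 1). limma-voom called 11 genes between the sexes (0.0673%) and 0 genes for the difference of BPA effects (0%), where 772 had an unadjusted p under 0.05 and limma-trend also called 0. Counting error was small beside the spread between mice: the Utp14b counts of 1338 to 3167 carry a counting error of 1.78% to 2.73%, against coefficients of variation of 6.18% to 17.2% within groups.

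Utp14a, the X-linked parent gene, had no called change with BPA. Its levels were 26.7, 24.1, 26 and 26.7 CPM in male controls and 24, 26.8, 27.8 and 25.6 CPM in female controls. With BPA they were 23.6, 25, 24.9 and 23.6 CPM in males and 27.3, 26.4, 26.8 and 26.9 CPM in females. The exposure groups overlapped, and the spread within a group was the narrowest of the 3 genes. The log2 fold change over both sexes was -0.03 ± 0.04, with an interval from -0.11 to 0.06 (limma-voom adjusted p = 0.928), and it was -0.03 without male BPA 2 and female BPA 1. In males it was -0.10 ± 0.06 (adjusted p = 0.724) and in females 0.04 ± 0.05 (adjusted p = 0.999). All 4 BPA females lay above all 4 BPA males, which held for 1.34% of the tested genes (219). That sex difference within BPA was 0.15 on the log2 scale (adjusted p = 0.756 in limma-voom). The difference of BPA effects between the sexes, 0.14 ± 0.08 with an interval from -0.02 to 0.31, missed the threshold too (adjusted p = 0.999), as did the sex difference over both exposures, 0.08 ± 0.04 (adjusted p = 0.999).

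Acsl3, the host gene, was far more abundant. Its levels were 815, 859, 930 and 880 CPM in male controls and 909, 940, 790 and 826 CPM in female controls. With BPA they were 739, 824, 803 and 935 CPM in males and 724, 732, 877 and 826 CPM in females. The 3 lowest libraries were exposed ones, yet male BPA 4 held the second highest level, so the groups overlapped. The log2 fold change was -0.11 ± 0.06, with an interval from -0.24 to 0.02 (limma-voom adjusted p = 0.721), and it was -0.08 without male BPA 2 and female BPA 1. It was -0.08 ± 0.08 in males (adjusted p = 0.865) and -0.14 ± 0.08 in females (adjusted p = 0.999). The sexes differed by -0.04 ± 0.06 on the log2 scale (adjusted p = 0.999), and the BPA effects of the sexes by -0.05 ± 0.12 (adjusted p = 0.999).

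Ratios within a library do not depend on library scaling. Controls held 8.49 ± 0.530 Utp14b counts per 100 Acsl3 counts, from 7.88 to 9.43, and BPA libraries 6.36 ± 0.466, from 5.88 to 6.90 (SD, n = 8 each). These ranges did not overlap. Per 100 Utp14a counts, Utp14b stood at 285 ± 25 in controls, from 230 to 312, and at 202 ± 27.3 with BPA, from 162 to 234. Here the highest BPA library reached past the lowest control. Utp14b made up 73.9% ± 1.85 of the counts of the Utp14 pair in controls and 66.6% ± 3.18 with BPA. These ratios contain Utp14b and are descriptions. The Utp14a to Acsl3 ratio, which does not contain it, was 3 ± 0.292 per 100 in controls and 3.19 ± 0.379 with BPA (exact permutation test over 12870 splits, two-sided, p = 0.297, adjusted over 4 ratio tests 0.594). Between the sexes, exact permutation over all libraries, which ignores exposure, gave p = 0.967 for Utp14b to Acsl3, 0.488 for Utp14b to Utp14a and 0.157 for Utp14a to Acsl3 (adjusted 0.967, 0.651 and 0.594). With sex permuted only within each exposure (4900 splits, added after the data were seen), exact p was 0.923, 0.216 and 0.157 (adjusted 0.923, 0.369 and 0.369). With exposure permuted only within each sex, exact p for Utp14a to Acsl3 was 0.277 (adjusted 0.369).

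**Figure D3:**
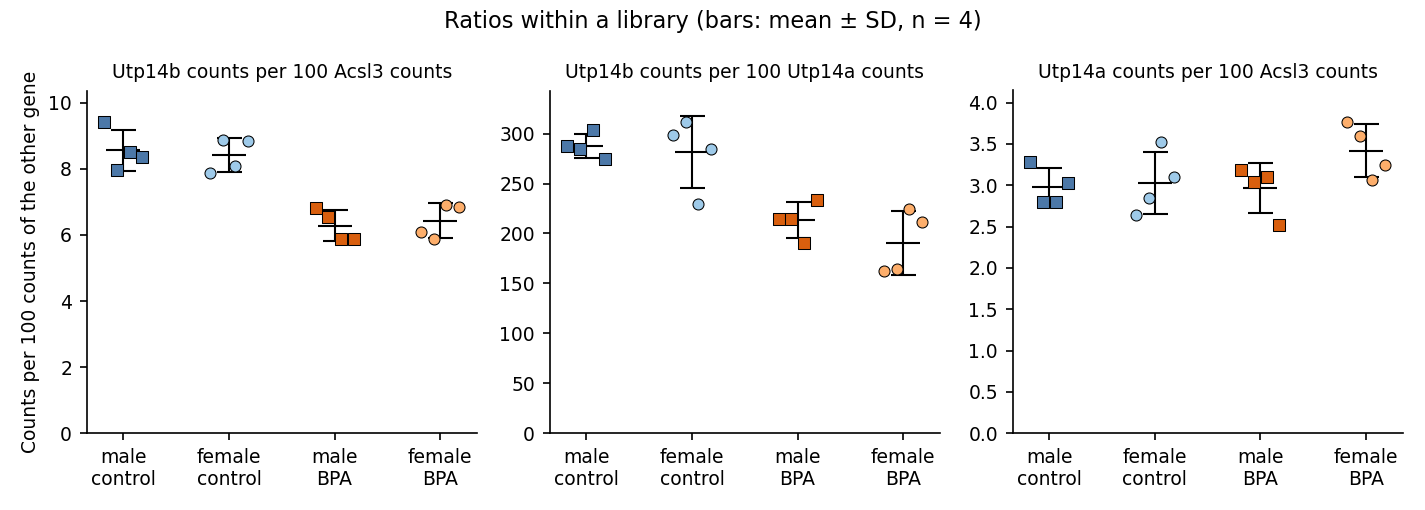
Counts of 1 gene per 100 counts of another in the same library (vertical axis, from 0), by group, with mean ± SD (n = 4). Utp14b per 100 Acsl3 counts is at least 7.88 in controls and at most 6.90 with BPA, while Utp14a per 100 Acsl3 counts overlaps between exposures.

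Levels can be set side by side between genes only per length. Per kilobase of the longest annotated transcript, controls held 9.97 ± 0.827 CPM of Utp14b, 10.4 ± 0.541 CPM of Utp14a and 220 ± 14.1 CPM of Acsl3 (SD, n = 8). With BPA the same values were 6.95 ± 0.839, 10.2 ± 0.595 and 204 ± 18.9 CPM per kilobase. On this scale the retrogene and its parent stood at like levels in controls, and Acsl3 stood highest. The order of the Utp14 pair depended on the length used: per kilobase of all exon bases joined, controls held 9.60 ± 0.796 CPM of Utp14b and 6.28 ± 0.328 CPM of Utp14a. The authors' own values per kilobase divide by median transcript lengths of 5539 bases for Utp14b, 2138 for Utp14a and 742 for Acsl3. The longest Acsl3 transcript has 3950 bases, so the authors' per-kilobase Acsl3 level of 40100 ± 2670 in controls rests on short transcript models.

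Within groups, Utp14b and Acsl3 varied together. With group means removed from log2 CPM, Pearson's r over 16 libraries was 0.765 (permutation within groups, p = 0.00617, adjusted over 3 pairs 0.0185) and Spearman's rho was 0.791 (permutation p = 0.00406, adjusted 0.0122). Without female BPA 2 and female BPA 3, the libraries farthest from the Utp14b median, r was 0.698. Leaving out 1 library kept r between 0.702 and 0.823, and the adjusted p rose past 0.05 without female control 2 (r = 0.73, permutation adjusted p = 0.0552) or female control 3 (r = 0.728, permutation adjusted p = 0.0585). Utp14b and Utp14a gave r = 0.037 and rho = 0.056 (permutation p = 0.898 and 0.83, adjusted 0.898 and 0.83), and r was -0.012 without the same libraries. Utp14a and Acsl3 gave r = -0.195 and rho = -0.165 (permutation p = 0.493 and 0.564, adjusted 0.74 and 0.83), and r was -0.177 without male control 2 and female control 1. Utp14a counts carry a counting error of 2.98% to 4.05%, against coefficients of variation of 1.48% to 6.3% within groups. For Acsl3 the counting error was 0.529% to 0.716%. With so little spread beyond counting error, the low r of Utp14a cannot tell whether it varies apart from the other genes. Among 13430 genes of at least 1 CPM, Acsl3 ranked 13 by this residual likeness to Utp14b. The genes ahead of all others were Ddx47 (r = 0.863), Cyb561d1 (0.858), Fhit (0.857), Ttc4 (0.814) and Itgal (0.809). As measured, with exposure left in, they were Tdp2 (0.885), Adck2 (0.858), Slc9a8 (0.839), Tbcel (0.836) and Gmnn (0.835), and Acsl3 ranked 47 (0.718). That scale holds the BPA contrast that chose Utp14b, so it favours genes lower with BPA and is not read as support. Those 5 genes had BPA log2 fold changes from -0.69 to -0.11. Each r is a description over 16 shared libraries.

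**Figure D4:**
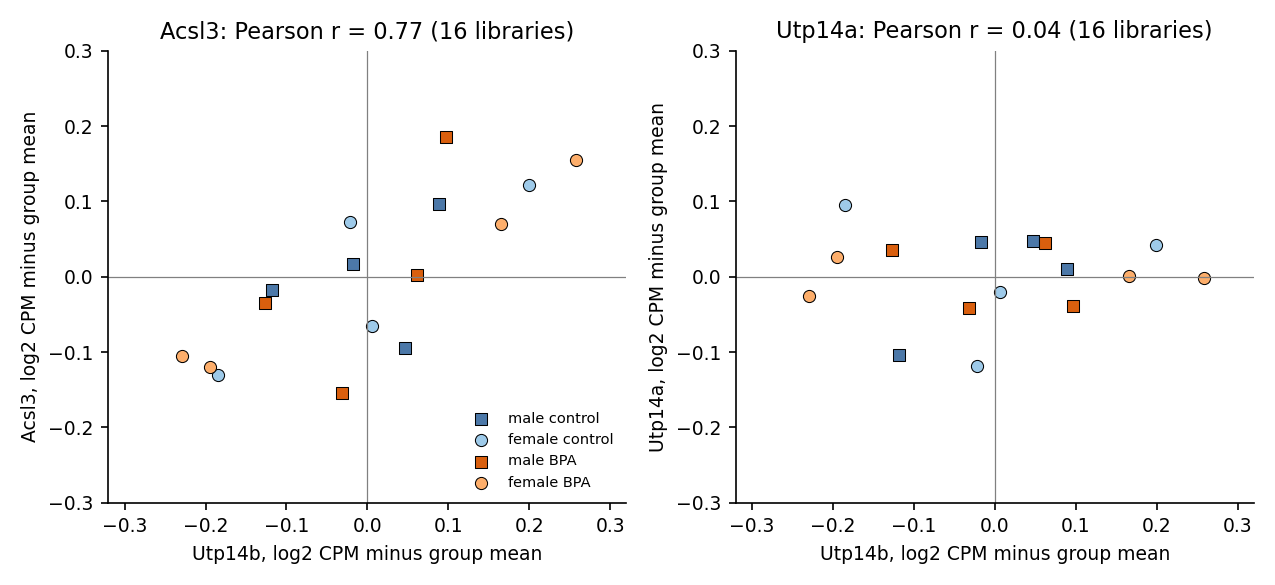
Log2 CPM minus the group mean of Acsl3 (left) and Utp14a (right), each against that of Utp14b, in 16 libraries coloured by group. Acsl3 against Utp14b gives r = 0.765, and Utp14a gives r = 0.037. The counting error of Utp14a, 2.98% to 4.05%, is close to its spread within groups, which limits its r.

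No tested gene beside either locus was called for BPA, where limma-voom called 0.0184% of all tested genes. At that share, 0 calls say nothing particular to these neighbours. Of the 12 nearest genes with counts around Acsl3 and Utp14b, 5 were tested and 0 were called by limma-voom or limma-trend. Their median log2 fold change was 0.11, against 0.003 over all tested genes. Of these 5, 1 had an unadjusted p under 0.05, against 7.69% of all tested genes. That 1 gene, Farsb, a subunit of phenylalanyl-tRNA synthetase, was named after its value was seen: 32.2 ± 0.851 CPM in controls and 34.7 ± 2.71 CPM with BPA (log2 0.11 ± 0.04, adjusted p = 0.540 in limma-voom). Of the nearest 3 on each side, Gm29611, Mogat1, BC035947, Gm6159 and Gm29187 were below the filter, and Kcne4, a potassium channel subunit, varied widely, at 8.82 ± 6.67 and 12 ± 7 CPM. Around Utp14a, 10 of 12 were tested, 0 were called by either tool and 0 had an unadjusted p under 0.05, with a median of 0.04. Its nearest tested neighbours were Zdhhc9, a palmitoyltransferase, at 854 ± 55.4 CPM in controls and 868 ± 126 CPM with BPA, and Sash3, Bcorl1 and Elf4, with log2 fold changes of 0.20, 0.09 and 0.11. Xpnpep2 and Gm7212 were below the filter.

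The other processome genes had estimates on both sides of 0. All 45 listed were tested: 24 estimates lay below 0 and 21 above, with a median log2 fold change of -0.004. limma-voom and limma-trend called 0, where limma-voom called 0.0184% of all tested genes. An unadjusted p under 0.05 was held by 4 (1 lower, 3 higher), against 1256 of all tested genes (7.69%). Dhx37, the mammalian counterpart of the helicase that Utp14 activates in yeast, stood at 44.7 ± 4.40 CPM in controls and 46.9 ± 3.36 CPM with BPA (log2 0.07 ± 0.06). The smallest p-values belonged to Tsr1, at 16.1 ± 0.939 and 14.6 ± 0.943 CPM, and to Wdr46, at 26.3 ± 2.96 and 29.3 ± 1.94 CPM. Utp25, which the annotation lists as Diexf, and Rrp7a followed, with log2 fold changes of 0.10 and 0.11. Their adjusted p-values in limma-voom ran from 0.540 to 0.571.

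Acyl-CoA synthetases, the enzyme family of Acsl3, gave 0 calls among 9 tested of 12, with 1 at an unadjusted p under 0.05. Their median log2 fold change was 0.11. Over all tested genes, limma-voom called 0.0184%, and 7.69% had an unadjusted p under 0.05, so these counts and those of the next list say nothing particular to either. Acsl1 stood at 306 ± 19.2 CPM in controls and 294 ± 32.5 CPM with BPA, Acsl4 at 28.9 ± 2.21 and 30.2 ± 1.60 CPM and Acsl5 at 7.98 ± 0.826 and 8.76 ± 1.64 CPM. Acsl6 ranged from 37.4 to 272 CPM. Slc27a4, a fatty acid transport protein, was the 1 with the small p and was named after its value was seen, at 242 ± 6.03 and 229 ± 10.0 CPM (adjusted p = 0.587 in limma-voom). Lipid droplet genes gave 0 calls among 14 tested of 17, 1 at an unadjusted p under 0.05 and a median of 0.05. Hilpda, an inhibitor of droplet lipolysis, stood at 4.78 ± 0.403 and 3.84 ± 0.733 CPM (log2 -0.33 ± 0.11, adjusted p = 0.410 in limma-voom). Dgat2, which completes triglyceride synthesis, gave -0.13, and the droplet coat genes Plin4 and Plin2 gave 0.63 ± 0.42 and 0.14. limma-trend called 0 in both lists.

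Other autosomal relatives of X-linked genes were compared as the Utp14 pair was. Of 12 autosomal members 7 had a row and 4 were tested, with 0 calls, 0 at an unadjusted p under 0.05 and a median of -0.01. These 4 were Cstf2t, at 53.5 ± 1.68 CPM in controls and 54.9 ± 3.79 CPM with BPA, Hnrnpf, at 19.0 ± 0.770 and 18.5 ± 1.26 CPM, Nxt1, at 6.61 ± 0.874 and 6.28 ± 0.684 CPM, and Rbmxl1, at 5.68 ± 0.337 and 6.20 ± 0.478 CPM. Of their 12 X-linked partners 11 were tested, with 0 calls, 0 at an unadjusted p under 0.05 and a median of 0.02. Over all tested genes, limma-voom called 0.0184%, and 7.69% had an unadjusted p under 0.05. limma-trend called 0 in both lists.

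**Figure D5:**
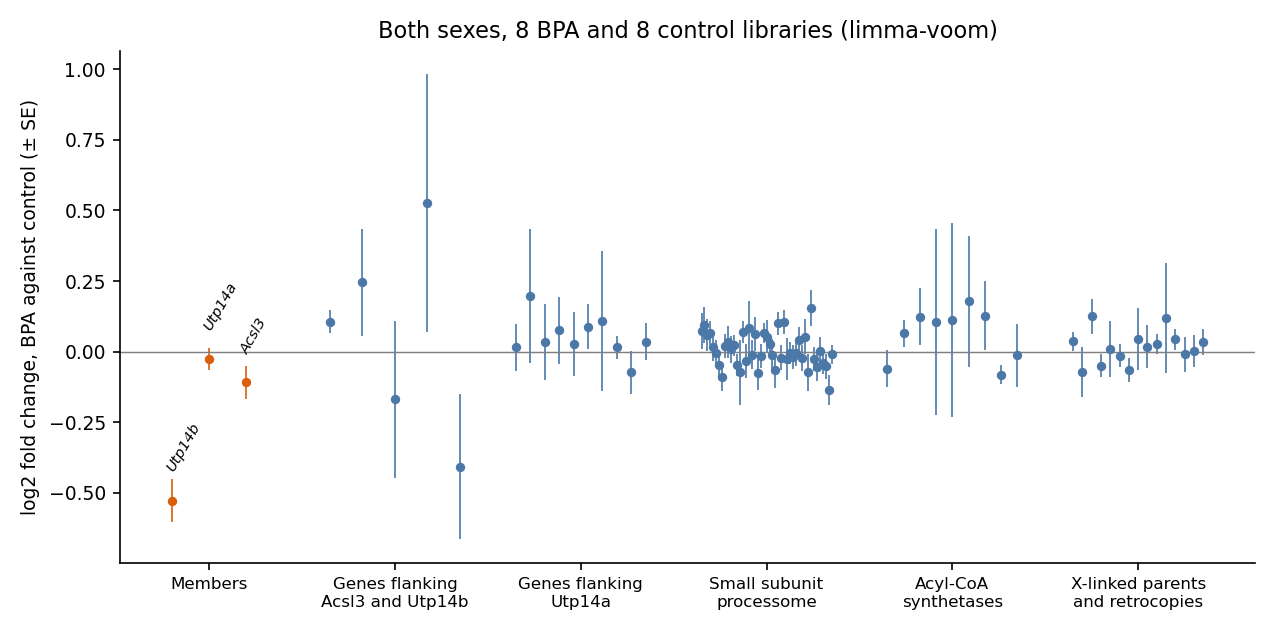
Log2 fold change of BPA against control over both sexes (vertical axis) with SE, for the 3 genes (orange) and the tested genes of the compared lists (blue), 8 libraries against 8. Utp14b stands at -0.53, Utp14a at -0.03 and Acsl3 at -0.11.

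Germ cell markers, listed because Utp14b is known for its role there, were near 0 except Zbtb16: 6 of 10 listed markers had a row, and over all 16 libraries together Sycp3 held 81 counts, Tex11 44, Dazl 40, Ddx4 35 and Mael 10. Zbtb16, which other cells also express, was the 1 tested. In the marker lists of oligodendrocyte stages and other cells, limma-voom and limma-trend made 0 calls for BPA. limma-voom called 0.0184% of all tested genes. The 5 microglial markers all had estimates above 0 (median 0.22), with summed levels of 340 to 1230 CPM in controls and 435 to 1530 CPM with BPA. The 5 astrocyte markers did too (median 0.15), with 400 to 868 CPM in controls and 331 to 2160 CPM with BPA. That 2160 CPM belongs to the exposed male library described above as standing apart in astrocyte markers. The median summed astrocyte level did not rise, at 623 CPM in controls and 620 CPM with BPA. By sex it was 579 and 545 CPM in males, and 645 and 620 CPM in females. The 4 tested neuronal markers of 5 had estimates below 0 (median -0.15), summing to 19.0 to 29.6 CPM in controls and 19.0 to 25.8 CPM with BPA. Of 6 committed oligodendrocyte markers 5 had estimates below 0 (median -0.10) and 3 an unadjusted p under 0.05, against 7.69% of all tested genes, and summed levels were 5330 to 6650 CPM in controls and 4470 to 7730 CPM with BPA. Myelinating cells' 10 markers had a median of -0.01, the 5 precursor markers -0.04 and the 4 endothelial markers 0.01. The precursor value pools sexes whose median summed levels went opposite ways, as do the committed, microglial and myelinating values. Summed precursor levels had medians of 2470 CPM in male controls and 1920 CPM in BPA males, and 2230 and 2440 CPM in females. Committed markers had medians of 5820 and 4950 CPM in males, and 5750 and 5960 CPM in females. For microglial markers these were 492 and 770 CPM in males, and 887 and 723 CPM in females. Myelinating markers gave 138000 and 157000 CPM in males, and 143000 and 138000 CPM in females. The difference of BPA effects, females minus males, ran from 0.30 to 0.75 over the 5 precursor markers (adjusted p = 0.999 for each in limma-voom). It ran from 0.229 to 0.495 over committed and from -0.427 to -0.269 over microglial markers (adjusted p = 0.999 for each in limma-voom). With the sexes pooled, all these summed levels overlapped between exposures. In males alone, committed markers summed to 5550 to 6650 CPM in controls and 4470 to 5400 CPM with BPA. Precursor markers in males summed to 2310 to 2620 CPM and 1660 to 2240 CPM, so neither list overlapped there. The share of all genes that separate this way in males was not computed, so nothing is read from that. In females both lists overlapped, at 5330 to 6180 and 5010 to 7730 CPM for committed markers and 2010 to 2470 and 1780 to 3470 CPM for precursor markers. The part of these cell types in the Utp14b values was not tested.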

How the data were processed

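RNA of O4-sorted brain cells from 16 mice was sequenced. Per the labels' protocols, libraries were stranded poly(A) preparations. The submitters' processing notes list DESeq2 1.16.1, HTSeq 0.6.1p1, STAR 2.5.3a, bcl2fastq 2.20.0.422 and the genome build mm39 as what the authors used; the annotation release and the counting mode are not given in the sources used here. The deposited values are whole-number counts of each gene, the same counts normalized by the authors (not used here) and, per the labels, those values divided by the median transcript length in kilobases. The layout of the table kept the automated unit check from reading its columns, and the counts could be described only by their values. For that reason limma-voom replaced a quasi-likelihood test of counts, which had been written down as the main test.

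The filter asked for a count of about 10 in at least as many libraries as a group holds (4) and a total of 15, which kept 16339 genes with 99.947% of the counts. Scaling was by trimmed mean of M values (TMM), re-implemented in R 4.3.3. The linear model in limma 3.58.1 had a coefficient for each of the 4 groups and took in all 16 libraries, with voom weights and robust empirical Bayes. P-values are two-sided and adjusted by Benjamini-Hochberg over all tested genes, with a threshold of 0.05. Log2 CPM used a prior count of 2, and residual correlations 100000 permutations within groups. The fit was tested on simulated data. Total counts ran from 23603816 to 42575326 per library, and 3 counts, the limit that a count of 0 allows by counting error, equal 0.0705 to 0.127 CPM.

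The genes and lists were chosen with earlier results of these data known. The genes named are the 3 studied and the nearest 3 with counts on each side of both loci. Of the processome they are Dhx37 and the 4 genes of smallest p. The rule also names the other Acsl genes, the 4 lipid droplet genes of smallest p and the 4 highest autosomal relatives. On each of 2 scales it names the 5 genes most like Utp14b. Named beyond that rule are Farsb and Slc27a4, chosen after their values were seen, Mbp as a marker of the cells, and the germ cell markers with a row. Symbols, neighbours, exons and transcript sequences come from GENCODE M21 and promoter windows from RefSeq (GRCm38.p6), found for all 3 genes; this is not the authors' build, so coordinates are printed only with those windows. Sequences were aligned with Biopython 1.88, and exact permutation tests used Python 3.11.15 with SciPy 1.17.1 and NumPy 2.4.6.

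Same-numbered libraries of different groups were not treated as paired: the correlation of their deviations ran from -0.238 to 0.231 over 24 pairs. Alternatives covered scaling, filters, the tool, a replicate block and left-out libraries.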

Additional observations from a re-analysis of the deposited data

How the results depend on the processing

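The count of genes called for BPA was unstable: 3 as reported, 3 with median-of-ratios factors, no filter, limma-trend or unscaled totals, and 0 with at least 1 CPM in 4 libraries, with the replicate block, or without male BPA 2 and female BPA 1 together. With 1 library left out it ran from 0 to 5: 5 without female control 4, 1 without male control 2, 4 without male BPA 2, 3 without female control 3, female BPA 3 or female BPA 4, and 0 without any other single library. Between the sexes it was 9 to 14 with 1 library left out, against 11. The library numbers showed no clear pairing: 4 of 16 libraries were most like one of their own number, and 7 of 24 same-number pairs had r over 0.1. Whether libraries of the same number share a litter or a batch is not labelled and was not tested. With the replicate block the Acsl3 change was -0.11 and the Utp14a change -0.03, neither past the threshold.

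Estimates near 0 changed sign, none past the threshold, and the cause was not tested. The Utp14b difference of BPA effects, females minus males, was -0.0003 on the log2 scale as reported, 0.0044 with median-of-ratios factors, 0.0019 without a filter, 0.0024 with the replicate block, 0.0033 in limma-trend, 0.0408 with unscaled totals and 0.0912 without male BPA 2 and female BPA 1. With 1 library left out it ran from -0.0918 to 0.0867. The Utp14b difference of females against males was 0.0102 without those libraries together and ran from -0.082 to 0.006 with 1 left out, and the Acsl3 difference of BPA effects ran from -0.1005 to 0.006. The residual correlation of Utp14b with Acsl3 ran from 0.702 to 0.823, and that with Utp14a from -0.119 to 0.285. The median log2 fold change of all genes moved by less than 0.1 under every scaling. The planned fits with the quasi-likelihood and negative binomial count tools were not run, since the unit check could not read the counts. Of 327 tested values under the alternatives, 303 kept their direction and side of the threshold, 22 changed sign and 2 fell short of the threshold. Of 46 counts of genes called, 31 stayed within 1.5 times the reported count. The 69 BPA values of Utp14b, which chose the gene, have no test and are not read as support.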
